A study of Mus musculus with 12 samples.

Results

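Liver gene expression was compared between 3 Ahnak knockout (KO) mice and 3 wild-type (WT) mice that had eaten a high-fat diet (HFD). These 6 arrays, 1 mouse each, were chosen by the genotype and diet in their labels out of the 12 arrays of the series. All were males of the strain C57BL/6, placed in weight-matched groups, and for 8 weeks they received a purified diet (D12492) with 60% of fat. Another 3 WT and 3 KO males on regular chow completed the series and entered the same fit. The age of the mice, the hour at which the livers were taken and the part of Ahnak that was deleted could not be found in the sources used here. The difference, KO minus WT on HFD, was described across the 22180 genes that had a probe set with a single gene symbol.

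Ahnak encodes a very large scaffold protein found beneath the plasma membrane. A liver exposed to a fat-rich diet stores triglyceride, adjusts lipid synthesis and oxidation to insulin and fatty acids, and can add stress and inflammatory programmes. In the male mouse, pulses of growth hormone also keep one set of liver genes high and another set low, so that the sexes differ in many cytochromes P450, sulfotransferases and secreted proteins.

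Signals are log2 values, so that a difference of 1 is a doubling. Arrays of the same group correlated across genes with r between 0.9918 and 0.9944, and KO HFD with WT HFD arrays with r between 0.9844 and 0.9862. On the first principal component (32.2% of the variance) the 3 WT HFD arrays scored 30.0 to 32.3 and the other 9 arrays -18.5 to -3.95, so that the WT HFD livers stood apart there. On the second the KO HFD arrays scored 10.2 to 18.2. The tissue label was met by the markers: the mean of 17 hepatocyte markers lay between 12.49 and 12.53 on the 6 HFD arrays, with albumin (Alb) at 14.11, 14.13 and 14.16 in WT and 14.09, 14.06 and 14.12 in KO, while 9 pancreatic acinar markers averaged 4.58 to 4.77 on the same arrays. The log2 signal of Ahnak itself, from 1 probe set, was 7.26, 7.06 and 6.74 in WT HFD and 6.46, 6.52 and 6.62 in KO HFD, against 6.50, 6.83 and 6.58 in WT chow and 6.38, 6.74 and 6.66 in KO chow. On HFD the 2 groups did not overlap and the difference was -0.48 ± 0.14 (adjusted p = 0.0483), but on chow it was -0.04 ± 0.14. Whether the probe set lies inside the deleted part is not known here, so the labels could not be tested with it. Ahnak lost its call without WT chow 1 or 3 or KO chow 2 or 3 or WT HFD 1 or 2 or any 1 KO HFD array (highest adjusted p 0.173). Calls also ended (adjusted p in brackets) with only the HFD arrays in the fit for Ahnak (0.0735), with arrays centred on the median of genes for Ahnak (0.0575), by quantile normalization for Ahnak (0.0752), and with every probe set tested for Ahnak (0.05).

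The livers differed in 2331 of 22180 genes (10.5% of those tested) at an adjusted p under 0.05 by limma with Benjamini-Hochberg adjustment. In KO 862 genes were higher (3.89%) and 1469 lower (6.62%). Most changes were small: the median rise was 0.50 and the median fall -0.56 on the log2 scale, the smallest called changes were 0.25 and -0.25, and 96 rises and 199 falls reached 2-fold. At the far end 20 genes rose and 38 fell by at least 2 log2 units, 3 and 15 by at least 3. The 3 KO and 3 WT arrays did not overlap for 2327 of the genes called, and for 28.6% of all genes (13% with KO higher, 15.6% with KO lower). Among genes split into 4 equal groups by signal, 1.93% of the weakest and 21.9% of the strongest were called. The gene lists below were not matched for signal. For lists of bright or dim genes the share of all genes is therefore an unlike standard. Xist, an RNA of the inactive X chromosome, serves here as a mark of weak signal in male liver and read 4.21 to 4.76 over the 12 arrays. It is not the floor of the arrays, since the lowest signal of any probe set was 1.40. For 122 of the genes called the lower group mean lay at or under the highest Xist value, and the size of those differences is less certain than their direction. The balance of rises and falls moved with the scaling: with arrays centred on the median of all probe sets, an alternative chosen after seeing the data, 545 genes were higher and 1937 lower (22% and 78% of the calls, against 37% and 63%), while the median difference over all genes moved from 0.0011 to -0.0608. Without WT HFD 1, 2 or 3 or KO HFD 2 the number of higher genes was 549, 523, 529 and 531, and without WT HFD 3 the number of lower genes was 977. Nothing in the labels says that mice of a group came from separate litters or cages, so p-values measure the spread between these mice.

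**Figure D1:**
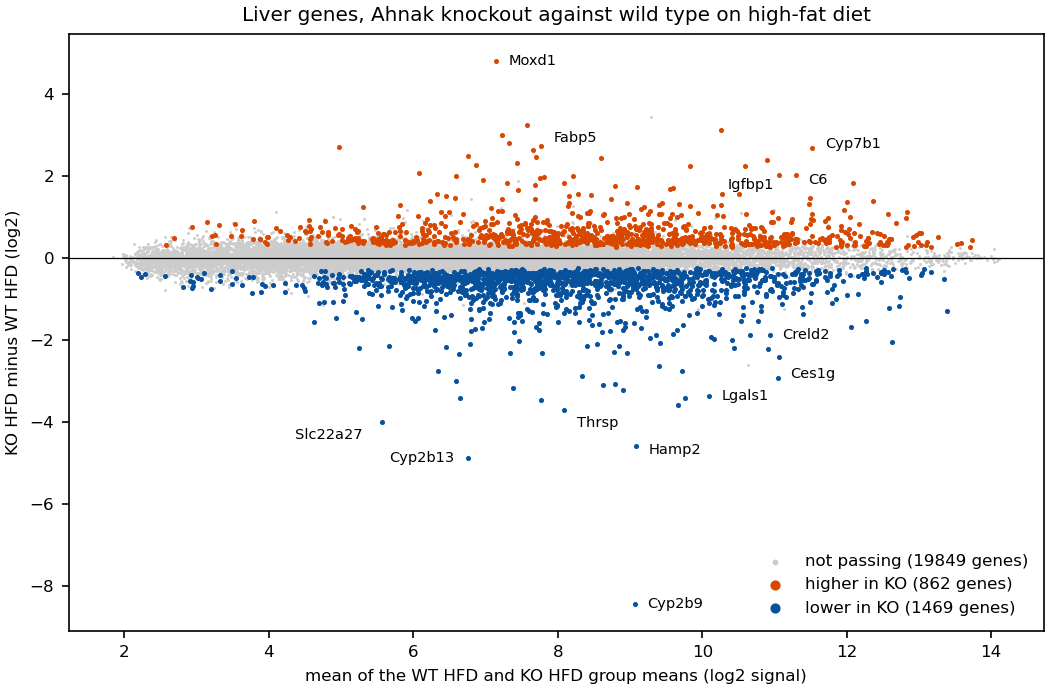
Each point is 1 of 22180 genes, with the average of the WT HFD and KO HFD group means on the horizontal axis and the KO minus WT difference on HFD on the vertical axis, both in log2 units; orange points are the 862 genes called higher in KO, blue the 1469 called lower and grey those that did not pass. Moxd1 lies highest and Cyp2b9 lowest, and called genes are sparse at weak signals.

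Most of the measured genes that male liver normally expresses more than female liver rose in KO on HFD. Of 25 measured male-biased genes 18 rose and 2 fell (all genes: 3.89% and 6.62%), with a median difference of 1.10, against 0.0011 over all genes. Moxd1, a monooxygenase-like gene, read 4.89, 4.68 and 4.69 in WT HFD and 8.69, 10.13 and 9.82 in KO HFD, a difference of 4.80 ± 0.29 (adjusted p = 1.93e-06). The 3 WT values lie at the level of Xist and the 3 KO values far above it; on chow both genotypes also lay near the Xist level (means 4.74 and 4.77), so that among the 4 groups KO HFD was the one with a clear signal. C6, a complement component of the membrane attack complex, read 10.44, 10.16 and 10.28 in WT and 12.29, 12.28 and 12.33 in KO (a rise of 2.00 ± 0.09, adjusted p = 4.34e-07), and its partners C8b and C8a rose by 1.37 ± 0.08 and 0.55 ± 0.12. For C6 and C8b the low group was WT HFD, since the means of the other 3 groups lay between 11.66 and 12.30 for C6 and between 12.76 and 13.05 for C8b. Cyp7b1, an oxysterol hydroxylase, read 10.24, 9.99 and 10.34 in WT HFD and 12.91, 12.82 and 12.82 in KO HFD, where the 3 mice differed by less than 0.1. Egfr, the receptor of epidermal growth factor, rose by 1.45 ± 0.12 (adjusted p = 2.86e-05), and Serpina1e, an antitrypsin gene, by 1.34 ± 0.08 (adjusted p = 1.98e-06). The 2 members that fell were the cytochrome P450 gene Cyp2u1, by 0.88 ± 0.15, and Keg1, a glycine acyltransferase-like gene, by 0.67 ± 0.17. Hsd3b5, a steroid dehydrogenase, rose by 2.44 ± 0.51 (adjusted p = 0.00913) from 7.75, 7.76 and 6.62 to 10.42, 9.67 and 9.36, groups that did not overlap although WT HFD 3 lay about 1 unit under the other WT mice. Keg1 lost its call without WT HFD 1 or 3 or KO HFD 3 (highest adjusted p 0.093). In other settings the adjusted p of a call rose past 0.05 with only the HFD arrays in the fit for Keg1 (0.0695).

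Of 28 measured female-biased genes 1 rose and 12 fell (all genes: 3.89% and 6.62%), with a median of -0.25. The list was mixed, with 11 differences above 0 and 17 below 0. The arrays did not overlap for 6 members with KO higher and for 13 with KO lower (all genes: 13% and 15.6%). Cyp2b9, a cytochrome P450 of female liver, read 13.17, 13.30 and 13.40 in WT HFD and 6.18, 4.39 and 3.98 in KO HFD, a fall of 8.44 ± 0.94 (adjusted p = 0.000196). All 3 WT mice were among the brightest signals of the array, while KO HFD 2 and 3 lay at the level of Xist and KO HFD 1 somewhat above. On chow Cyp2b9 varied between mice of the same genotype, from 7.69, 8.88 and 6.75 in WT to 7.87, 11.31 and 12.29 in KO. Hamp2, a gene of the hepcidin pair, read 11.32, 11.13 and 11.67 in WT and 6.74, 7.18 and 6.42 in KO (a fall of 4.59 ± 0.33, adjusted p = 7.52e-06), with chow means of 9.22 and 9.88 in between. Slc22a27, an organic anion transporter gene, fell by 4.02 ± 0.28 (adjusted p = 5.28e-06) from 7.45, 7.13 and 8.17 to 3.62, 3.61 and 3.45, the latter below Xist. Abcd2, a peroxisomal transporter of very long fatty acids, fell by 2.15 ± 0.34 (adjusted p = 0.00186) and Hao2, a peroxisomal hydroxyacid oxidase, by 1.57 ± 0.23 (adjusted p = 0.00113). The member that rose was Nipal1, a magnesium transporter gene, by 1.43 ± 0.22 (adjusted p = 0.00148). Of the female-biased genes 15 did not pass, among them Cyp2c69 at 0.56 ± 0.19 (adjusted p = 0.0946) and Fmo2 at -0.32 ± 0.15 (adjusted p = 0.228).

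Members of the growth hormone pathway itself were measured beside its targets. Of 15 genes 3 rose and 1 fell (all genes: 3.89% and 6.62%), with a median of 0.12. Socs2, a STAT5 target that dampens the receptor, read 8.24, 8.64 and 9.25 in WT HFD and 10.99, 11.02 and 10.86 in KO HFD, a rise of 2.25 ± 0.22 (adjusted p = 8.82e-05). The KO values are as high as those on chow (means 10.79 in WT and 11.21 in KO), and all 3 WT HFD values lie below. Ghr, the growth hormone receptor, fell by 0.46 ± 0.10 (adjusted p = 0.011), and Igf1, its main endocrine product, rose by 0.37 ± 0.09 (adjusted p = 0.0175). Bcl6, a repressor at STAT5 sites, stood at 0.85 ± 0.59 (adjusted p = 0.424) and Cux2, a female-biased repressor, at 0.12 ± 0.09 (adjusted p = 0.452). Among 12 genes of insulin-like growth factor binding 3 rose: Igfbp1, which insulin represses, from 9.59, 9.32 and 9.52 to 12.34, 10.93 and 11.83, Igfbp2 from 10.32, 9.99 and 9.85 to 11.95, 12.16 and 12.11, and Igf1. For both binding proteins the WT HFD mice were low and the KO HFD mice close to the chow means (11.71 and 11.74 for Igfbp1, 12.11 and 12.21 for Igfbp2). Igfbp5 fell by 0.92 ± 0.24 (adjusted p = 0.0297). Igf1 lost its call without WT HFD 1 or 2 or KO HFD 1 (highest adjusted p 0.07). Igfbp5 lost its call without WT HFD 1 or 3 or KO HFD 2 or 3 (highest adjusted p 0.111). Further calls were lost (adjusted p in brackets) with only the HFD arrays in the fit for Igf1 (0.0524). Averaged over all its probe sets, Socs2 stood at 1.48 (adjusted p = 2.27e-05).

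**Figure D2:**
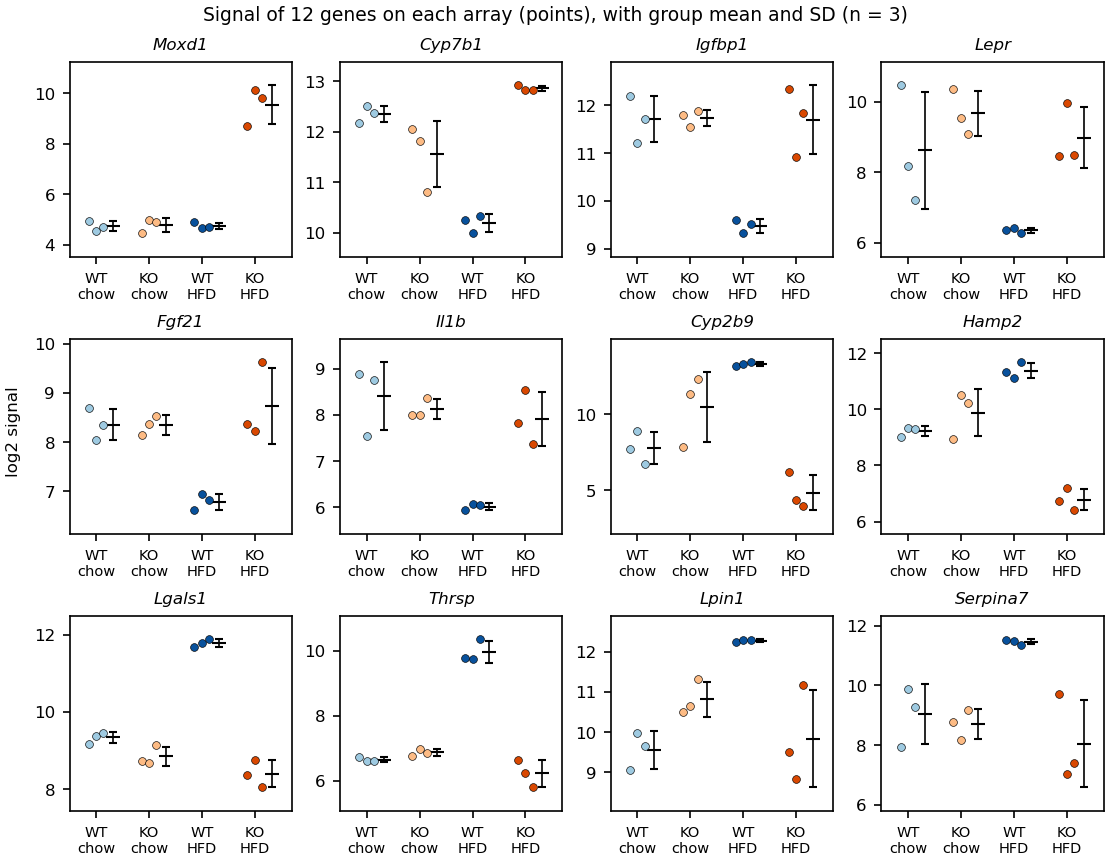
Each panel shows the log2 signal of 1 gene on the 12 arrays (points, by group), with the group mean and SD (n = 3) as a bar beside them; the vertical scale differs between panels. For Cyp7b1, Igfbp1, Lepr, Fgf21 and Il1b the WT HFD mice lie below the other 3 groups, for Lgals1 and Thrsp they lie above, and for Moxd1 the KO HFD mice are the ones that differ.

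Some genes of foreign compound metabolism fell. Of 28 receptors and targets of drug metabolism 0 rose (1 at an unadjusted p under 0.05) and 10 fell (all genes: 3.89% and 6.62%). Of the genes that fell 3, Cyp2a4, Cyp2b9 and Cyp2b13, also belong to the female-biased list. Cyp2a5, a coumarin hydroxylase, read 9.03, 8.86 and 9.02 in WT HFD and 5.85, 5.65 and 5.88 in KO HFD, a fall of 3.17 ± 0.11 (adjusted p = 3.6e-08), with chow means of 8.45 and 8.26. Here the KO HFD livers were the low group. Cyp2b10, the marker target of the receptor CAR, fell by 3.43 ± 0.47 (adjusted p = 0.000769) to 5.43, 4.55 and 4.83, near the Xist level. The receptors did not pass: Nr1i3 (CAR) stood at 0.09 ± 0.22 (adjusted p = 0.858), Nr1i2 (PXR) at -0.13 ± 0.12 (adjusted p = 0.585) and Ahr at -0.55 ± 0.23 (adjusted p = 0.166). Probe sets of close paralogs such as Cyp2a4 and Cyp2a5, Cyp4a12a and Cyp4a12b, or Ugt2b37 and Ugt2b38 may read each other's transcripts, which was not tested.

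Of 26 glutathione genes and NRF2 targets 1 rose and 13 fell (all genes: 3.89% and 6.62%), with a median of -0.47. Glutathione transferases led: Gstm3 read 9.78, 10.05 and 10.71 in WT HFD and 7.69, 6.65 and 6.87 in KO HFD (a fall of 3.11 ± 0.35, adjusted p = 0.000216), Gstt3 fell by 2.30 ± 0.25, Gsta4 by 1.41 ± 0.15, Gsta3 by 1.38 ± 0.13 and Gstt1 by 1.01 ± 0.12. The exception was the male-biased Gstp1, which rose by 0.60 ± 0.11 (adjusted p = 0.00414). Of 13 carboxylesterases 2 rose and 7 fell, with a median of -0.75. Ces1g, which hydrolyses lipid esters, read 12.58, 12.49 and 12.47 in WT HFD and 8.80, 10.14 and 9.80 in KO HFD, with no overlap. Its fall was 2.94 ± 0.46 (adjusted p = 0.00186), and Ces2e, Ces2g and Ces1e fell by 1.55 ± 0.14, 1.26 ± 0.14 and 1.14 ± 0.13. Ces4a and Ces3b went the other way, by 1.15 ± 0.12 and 0.90 ± 0.09. Of 20 glucuronosyltransferases, sulfotransferases and their suppliers 2 rose and 8 fell. Counted without single arrays, the falls were 5 without KO HFD 2. Sult1c2 fell by 2.04 ± 0.20 (adjusted p = 8.85e-05). Ugt2b37 rose from 5.78, 5.93 and 6.08 to 8.47, 8.91 and 8.80 and Ugt2b38 from 3.32, 3.60 and 3.96 to 6.34, 5.95 and 6.68. Of 20 genes of steroid metabolism 1 rose and 7 fell. Akr1d1, the bile acid and steroid reductase, fell by 1.87 ± 0.24 (adjusted p = 0.000492) and Akr1c20 by 1.59 ± 0.18 (adjusted p = 0.000223), and the riser was Hsd3b5.

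Chaperones and quality control genes of the endoplasmic reticulum (ER) had the largest share of falls among the gene lists described here. This group is induced when unfolded proteins gather in the ER, by the factors ATF6 and XBP1, which bind the ER stress response element. Of 24 measured members 0 rose (0 at an unadjusted p under 0.05) and 15 fell (all genes: 3.89% and 6.62%). The median was -0.68, the arrays of 23 members did not overlap with KO lower (all genes: 15.6%), and all 24 differences were below 0, as they were under each of the 3 other scalings. Over all alternatives 13 to 17 members fell. Hspa5 (BiP), the main Hsp70 chaperone of the ER, read 11.12, 11.28 and 11.08 in WT HFD and 9.76, 9.84 and 10.30 in KO HFD, a fall of 1.20 ± 0.17 (adjusted p = 0.00104). The chow means were 10.38 in WT and 10.21 in KO, so WT HFD was the high group. Creld2, a folding factor, read 11.60, 11.99 and 12.04 and 9.92, 9.88 and 10.18 (a fall of 1.89 ± 0.16, adjusted p = 2.86e-05). Hyou1, a nucleotide exchange factor of Hspa5, fell by 1.36 ± 0.14, Sdf2l1, a cofactor of its cycle, by 1.54 ± 0.27, Manf by 1.13 ± 0.19, Dnajb9 by 1.09 ± 0.16, and the degradation genes Herpud1, Syvn1 and Sel1l by 1.22 ± 0.19, 1.15 ± 0.16 and 0.75 ± 0.11. The RNAs of the sensors and factors above them did not pass: Xbp1 stood at -0.09 ± 0.08 (adjusted p = 0.552), Atf6 at -0.24 ± 0.11 (adjusted p = 0.223) and Ern1 at -0.23 ± 0.10 (adjusted p = 0.202). The activity of their proteins was not measured. Of 14 heat shock chaperones of the cytosol and mitochondria 0 passed, with 1 above 0 and 2 below 0 at an unadjusted p under 0.05 in limma (median -0.16); 2 fell when only genes above the median signal were tested.

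The upstream sequences of 3 of these genes are shown because each holds an exact match to the ER stress response element (CCAAT, any 9 bases, then CCACG), printed in capitals. They come from RefSeq promoters of the build GRCm38.p6 and run 5′ to 3′ on the strand of the gene: Hspa5 at chr2:34771960-34772089 on the plus strand, Creld2 at chr15:88819500-88819629 on the plus strand, with the match on the opposite strand, and Syvn1 at chr19:6046446-6046575 on the plus strand.
Hspa5: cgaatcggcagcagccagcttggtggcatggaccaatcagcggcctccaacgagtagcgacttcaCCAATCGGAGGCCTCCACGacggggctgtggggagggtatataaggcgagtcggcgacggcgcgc
Creld2: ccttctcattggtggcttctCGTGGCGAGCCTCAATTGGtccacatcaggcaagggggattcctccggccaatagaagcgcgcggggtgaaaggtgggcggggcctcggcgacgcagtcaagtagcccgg
Syvn1: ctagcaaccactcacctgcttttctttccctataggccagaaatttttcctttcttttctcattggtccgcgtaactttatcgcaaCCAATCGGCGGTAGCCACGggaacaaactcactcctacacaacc
Searched on both strands in the 250 bases before the start, the element was found for 9 of 21 members with a promoter (42.9%), against 0.13% of all 27025 genes with a promoter. It was present in 5 of 13 members that fell and in 4 of 8 that did not pass. Calr, Canx, Derl3 and Dnajc3 are the members with a match that did not pass. The element holds a CCAAT box, so any match is also a match to that shorter motif. Syvn1 lies on chromosome 19, the chromosome of Ahnak, as does Ifit1, which is described below. Of the 720 genes there 26 rose and 64 fell (12.5% called). Over the autosomes 7.92% to 12.7% were called in either direction. The share of genes that fell was larger on chromosome 19 than on any other autosome. Shares of a whole chromosome do not describe the genes next to Ahnak, and linkage to the deleted gene was not tested.

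Targets of ATF4, the factor of a parallel stress arm, moved in both directions. Of 23 genes of the integrated stress response 2 rose and 6 fell (all genes: 3.89% and 6.62%). Ddit4, an inhibitor of mTORC1, fell by 1.69 ± 0.20 (adjusted p = 0.000349), Ddit3 (CHOP) by 1.36 ± 0.22 (adjusted p = 0.00188) and Chac1, a glutathione-degrading enzyme, by 1.13 ± 0.17 (adjusted p = 0.00154). Atf5 rose by 1.31 ± 0.13 (adjusted p = 8.85e-05) and Fgf21, a fasting hormone, by 1.95 ± 0.30 (adjusted p = 0.00152). Asns, asparagine synthetase, read 6.44, 6.69 and 6.45 in WT HFD and 8.54, 8.03 and 8.58 in KO HFD with no overlap, but its difference of 1.86 ± 0.60 (adjusted p = 0.0739) did not pass. The chow mice, which share the estimate of error, spread widely (10.42, 7.17 and 8.91 in WT, 8.16, 6.96 and 8.20 in KO). With only the 6 HFD arrays in the fit its adjusted p was 0.000528. Of 17 genes of serine, glycine and one-carbon metabolism 0 passed, with 1 above 0 and 3 below 0 at an unadjusted p under 0.05 in limma (median -0.04), and no alternative called more than 1 in either direction.

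Some interferon-induced genes, the antiviral programme that cells switch on when interferon binds its receptors, fell in KO. Of 37 measured members 0 rose (0 at an unadjusted p under 0.05) and 18 fell (all genes: 3.89% and 6.62%). The median was -0.49, all 37 differences were below 0 (with arrays centred on all probe sets 37, by quantile normalization 35), and 12 to 19 fell when 1 array was left out. Ifit1, which binds viral RNA, read 9.30, 9.07 and 9.20 in WT HFD and 7.37, 8.13 and 7.49 in KO HFD, a fall of 1.53 ± 0.23 (adjusted p = 0.00145). Cmpk2, a nucleotide kinase next to Rsad2, fell by 1.40 ± 0.19 (adjusted p = 0.000794), Rsad2 (viperin) by 1.07 ± 0.19 (adjusted p = 0.0034), Bst2 (tetherin) by 1.36 ± 0.36 (adjusted p = 0.03), the guanylate-binding gene Gbp3 by 1.13 ± 0.19 (adjusted p = 0.00232) and the ubiquitin-like Isg15 by 0.57 ± 0.10 (adjusted p = 0.0035). Gbp10, outside the list, read 10.64, 10.22 and 10.13 in WT HFD and 7.50, 7.31 and 6.97 in KO HFD. The factors Stat2 (-0.26 ± 0.11, adjusted p = 0.16), Irf9 (-0.11 ± 0.14, adjusted p = 0.68) and Irf1 (-0.05 ± 0.18, adjusted p = 0.909) did not pass, whereas Irf7 fell by 0.56 ± 0.16 (adjusted p = 0.046) and Irf8 by 0.56 ± 0.10 (adjusted p = 0.00338). Of 24 antigen presentation genes 3 fell (12.5%, all genes: 6.62%), the class II genes H2-Aa by 0.74 ± 0.16, H2-Ab1 by 0.82 ± 0.20 and H2-DMa by 0.40 ± 0.10. Such falls came to 1 without KO HFD 2 or 3 or WT HFD 3. Bst2 lost its call without any 1 WT HFD array or KO HFD 1 or 3 (highest adjusted p 0.104). Irf7 lost its call without any 1 HFD array or any 1 WT chow array (highest adjusted p 0.12). H2-Ab1 lost its call without WT HFD 1 or 3 or KO HFD 2 or 3 (highest adjusted p 0.0768). H2-DMa lost its call without WT HFD 3 or KO HFD 2 or 3 (highest adjusted p 0.0887). The threshold was also missed (adjusted p in brackets) with only the HFD arrays in the fit for Bst2 (0.0727), with trend and robust settings for Bst2 (0.0662), with array weights for Bst2 (0.0586) and Irf7 (0.0679), and by quantile normalization for Irf7 (0.07) and H2-DMa (0.051).

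The 3 upstream sequences below are shown because each gene fell and holds the core of the interferon-stimulated response element (GAAA, any 2 bases, GAAA, on either strand), with the matches in capitals. They are RefSeq promoters of GRCm38.p6 on the strand of the gene: Ifit1 at chr19:34640759-34640888 on the plus strand with 2 matches, Isg15 at chr4:156200819-156200948 on the minus strand with 3 overlapping matches, and Rsad2 at chr12:26456463-26456592 on the minus strand with 1 match.
Ifit1: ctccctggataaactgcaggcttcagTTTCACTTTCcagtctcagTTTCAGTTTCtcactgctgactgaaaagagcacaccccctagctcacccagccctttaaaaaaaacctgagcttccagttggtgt
Isg15: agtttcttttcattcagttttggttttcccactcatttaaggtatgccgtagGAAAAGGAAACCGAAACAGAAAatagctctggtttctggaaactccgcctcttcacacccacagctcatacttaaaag
Rsad2: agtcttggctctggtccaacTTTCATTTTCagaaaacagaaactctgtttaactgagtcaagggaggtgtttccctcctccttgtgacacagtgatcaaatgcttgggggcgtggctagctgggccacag
The core was found in the 250 upstream bases of 15 of 28 members with a promoter (53.6%), against 3.46% of all genes with a promoter. Of the members that fell 9 of 17 held it, and of those that did not pass 6 of 11. Among the latter are Ifit3, with 2 matches and a difference of -0.09 ± 0.11 (adjusted p = 0.675), and Irgm2 at -0.34 ± 0.16 (adjusted p = 0.212).

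Of 37 measured proteasome subunits 7 rose and 1 fell (all genes: 3.89% and 6.62%). Of the differences 30 were above 0 (median 0.19), and 27 with arrays centred on all probe sets. Those that rose were 6 subunits of the regulatory particle (Psmd3, Psmd4, Psmd6, Psmd11, Psmd12 and Psmc4) and the core subunit Psmb4; Psmd3 rose by 0.42 ± 0.09 (adjusted p = 0.00891) and Psmd4 by 0.45 ± 0.10 (adjusted p = 0.0104). The one that fell was Psmb10, a subunit that interferon exchanges into the core, from 9.25, 9.23 and 9.33 to 8.43, 8.61 and 8.21 (a fall of 0.86 ± 0.13, adjusted p = 0.00141). The other exchanged subunits, Psmb9 at -0.43 ± 0.13 (adjusted p = 0.0601) and Psmb8 at -0.25 ± 0.10 (adjusted p = 0.138), did not pass. The count of 7 is unstable. There were 3 rises without KO HFD 2 or 3 or WT HFD 1, 2 rises without WT HFD 2 and 4 rises without WT HFD 3. With trend and robust settings 14 rose, by quantile normalization 13, and with arrays centred on all probe sets 2. Of 33 cytosolic ribosomal proteins 2 rose, Rplp0 by 0.40 ± 0.10 (adjusted p = 0.0186) and Rpl10a by 0.31 ± 0.08 (adjusted p = 0.0339), although the arrays of 20 did not overlap with KO higher (median 0.21); with trend and robust settings 9 rose, by quantile normalization 6, and with arrays centred on all probe sets 1. Psmd6 lost its call without any 1 chow array or any 1 WT HFD array or KO HFD 2 or 3 (highest adjusted p 0.142). Psmd11 lost its call without WT HFD 2 or 3 or KO HFD 2 or 3 (highest adjusted p 0.117). Psmd12 lost its call without any 1 WT HFD array or KO HFD 2 or 3 (highest adjusted p 0.112). Psmc4 lost its call without WT HFD 1 or 2 or KO HFD 2 (highest adjusted p 0.0709). Psmb4 lost its call without WT HFD 1 or 2 or KO HFD 3 (highest adjusted p 0.0784). Rplp0 lost its call without WT HFD 1 or 3 or KO HFD 1 or 2 (highest adjusted p 0.0741). Rpl10a lost its call without any 1 WT HFD array or KO HFD 2 or 3 (highest adjusted p 0.128). Other settings ended calls, with the adjusted p in brackets: with only the HFD arrays in the fit for Psmd3 (0.0511), Psmd6 (0.124), Psmd11 (0.103), Psmd12 (0.112), Psmc4 (0.0677), Rplp0 (0.0505) and Rpl10a (0.0946), with arrays centred on all probe sets for Psmd6 (0.128), Psmd11 (0.0966), Psmd12 (0.104), Psmc4 (0.0645), Psmb4 (0.0627) and Rpl10a (0.108), and with probe sets averaged for Rplp0 (0.0879).

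**Figure D3:**
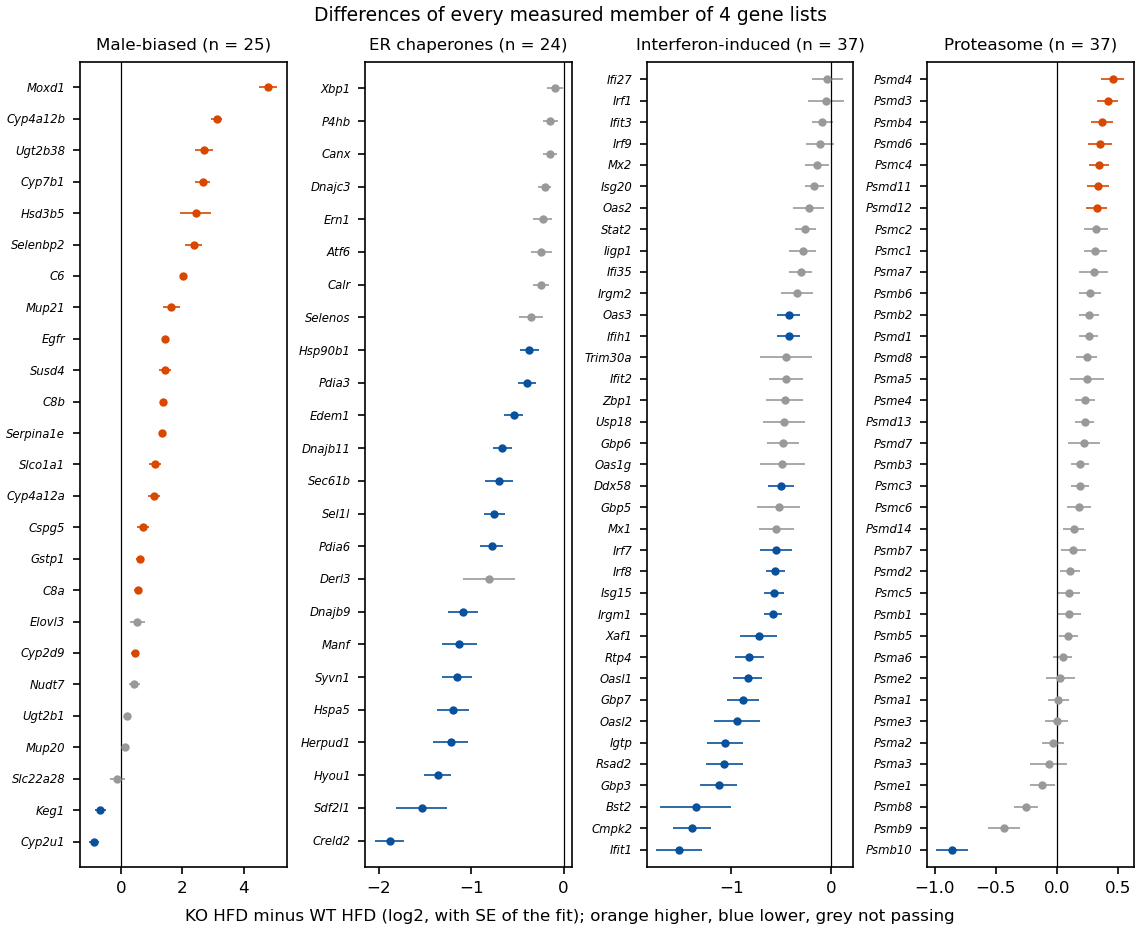
Points are the KO minus WT differences on HFD of every measured member of 4 gene lists, in log2 units with the SE of the fit; orange members rose, blue fell and grey did not pass. Most male-biased genes lie right of 0, all ER chaperones and interferon-induced genes left of it, and the proteasome subunit farthest to the left is Psmb10.

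Genes of the circadian clock and its output differed between the groups. The hour of collection is not in the sources used here, and the part that time of day may have in the other results was not tested. Of 14 core clock genes 2 rose and 1 fell (all genes: 3.89% and 6.62%). Arntl (BMAL1), an activator of the clock, read 8.04, 7.66 and 7.88 in WT HFD and 8.97, 8.95 and 8.90 in KO HFD, a rise of 1.08 ± 0.29 (adjusted p = 0.032). Its partner Clock rose by 0.49 ± 0.09 (adjusted p = 0.00473). Ciart, a repressor of the clock, fell by 2.89 ± 0.32 (adjusted p = 0.000178) from 9.50, 9.80 and 10.04 to 7.48, 6.80 and 6.41. Other members stayed under the threshold, Npas2 at 0.72 ± 0.27 (adjusted p = 0.122), Per3 at -0.66 ± 0.29 (adjusted p = 0.186), Per1 at -0.53 ± 0.26 (adjusted p = 0.24), Nr1d1 (REV-ERB alpha) at 0.36 ± 0.18 (adjusted p = 0.249) and Nr1d2 at -0.21 ± 0.17 (adjusted p = 0.508). Of 19 output genes 2 rose and 9 fell, with a median of -0.51. The D-box factor Dbp read 9.95, 10.33 and 10.23 in WT HFD and 9.18, 9.31 and 8.47 in KO HFD (a fall of 1.19 ± 0.26, adjusted p = 0.0125), and Tef and Hlf, of the same family, fell by 0.70 ± 0.15 and 0.59 ± 0.13. Usp2, a deubiquitinase with a strong rhythm in liver, read 10.14, 10.19 and 10.05 and 7.78, 7.61 and 7.99. Nampt, which makes NAD, fell by 0.84 ± 0.11, Upp2 by 1.45 ± 0.23 and Wee1 by 1.01 ± 0.25. By contrast, Avpr1a, a vasopressin receptor, rose by 1.82 ± 0.15 (adjusted p = 2.34e-05) and the glycogen synthase Gys2 by 0.70 ± 0.16 (adjusted p = 0.0166). On chow Arntl ranged over more than 1 unit among WT mice (9.68, 8.10 and 8.82), and so did Usp2 (7.42, 9.19 and 8.71). Arntl lost its call without any 1 HFD array (highest adjusted p 0.105). Hlf lost its call without WT HFD 2 or KO HFD 2 or 3 (highest adjusted p 0.0634). Wee1 lost its call without any 1 WT HFD array or KO HFD 2 or 3 (highest adjusted p 0.0804). Gys2 lost its call without WT HFD 1 or KO HFD 2 (highest adjusted p 0.0632). Calls also ended (adjusted p in brackets) with trend and robust settings for Arntl (0.0529). Averaged over all its probe sets, Tef stood at -0.33 (adjusted p = 0.231).

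The promoter of Ciart is shown since this clock gene had the largest difference and holds 3 E-boxes (CACGTG, in capitals), the site of CLOCK and BMAL1. It is the RefSeq promoter of GRCm38.p6 at chr3:95882235-95882364, on the minus strand and written 5′ to 3′ on the strand of the gene.
Ciart: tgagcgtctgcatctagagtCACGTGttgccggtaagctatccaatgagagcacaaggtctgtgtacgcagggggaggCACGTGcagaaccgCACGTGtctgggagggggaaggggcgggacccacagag
An E-box occurred in the 250 upstream bases of 4 of 13 core clock genes (30.8%) and 4 of 15 output genes (26.7%), against 6.86% of all genes with a promoter. A D-box (TTATGNAA on either strand) occurred in 2 of 13 and 2 of 15, against 3.63%. The other core genes with an E-box were Per1, Cry1 and Bhlhe41, none of which passed (Cry1 at -0.13 ± 0.13 (adjusted p = 0.598), Bhlhe41 at 0.15 ± 0.31 (adjusted p = 0.831)).

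**Figure D4:**
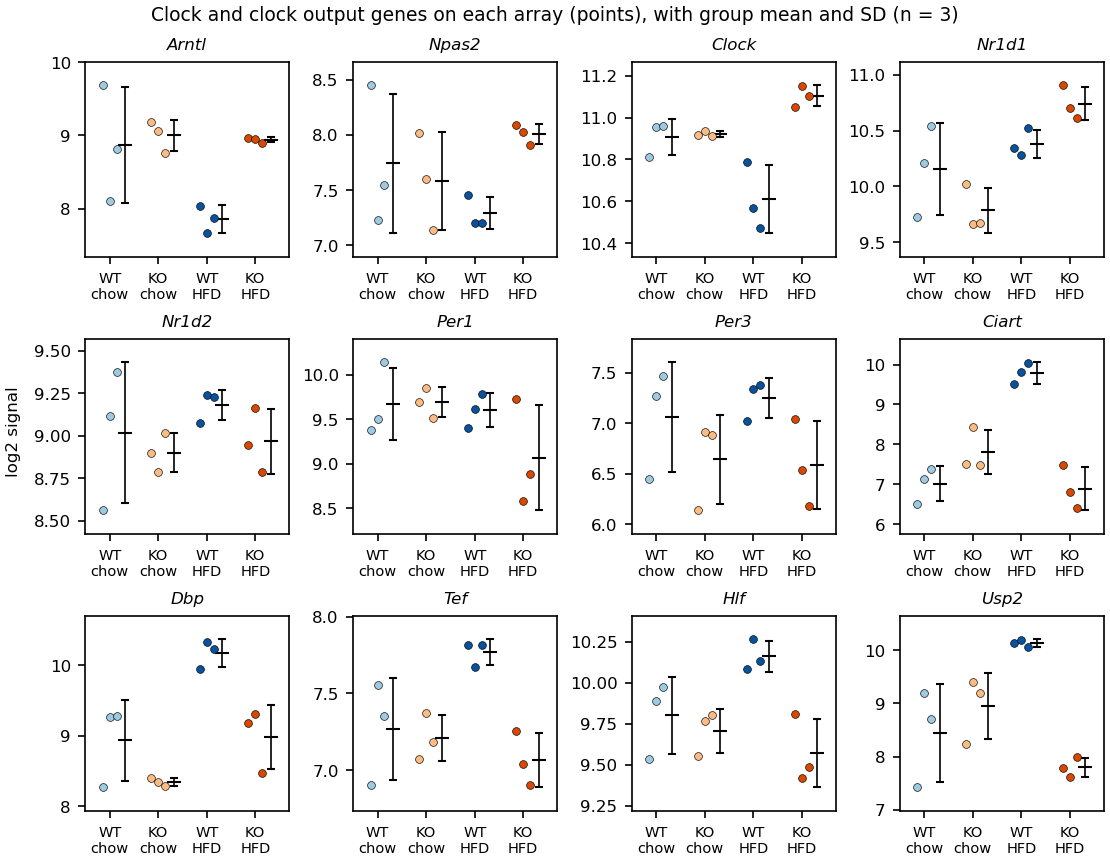
Each panel gives the log2 signal of a clock or clock output gene on the 12 arrays (points, by group) with the group mean and SD (n = 3); vertical scales differ. WT HFD mice lie below KO HFD mice for Arntl, Npas2 and Clock and above them for Ciart, Dbp, Tef, Hlf and Usp2, while the chow mice spread over much of that range for several genes.

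Several genes of lipid synthesis fell in KO. Of 19 fatty acid synthesis genes 3 rose and 7 fell (all genes: 3.89% and 6.62%). Thrsp (Spot 14), which follows lipogenic signals, read 9.78, 9.74 and 10.35 in WT HFD and 6.65, 6.23 and 5.80 in KO HFD, a fall of 3.72 ± 0.20 (adjusted p = 7.83e-07), with chow means of 6.66 and 6.87 beside the KO values. Scd1, the stearoyl-CoA desaturase, read 13.64, 13.63 and 13.67 and 12.47, 11.81 and 10.52 (a fall of 2.05 ± 0.34, adjusted p = 0.00244), Me1, malic enzyme, fell by 0.98 ± 0.21, Srebf1, the transcription factor of the pathway, by 0.91 ± 0.13, Acly by 0.39 ± 0.11 and Fasn, fatty acid synthase, by 0.64 ± 0.14. The 3 that rose, Elovl5 (0.56 ± 0.09), Acacb (0.58 ± 0.15) and Fads2 (0.34 ± 0.07), act in elongation, malonyl-CoA at mitochondria and polyunsaturated fatty acids. With 1 array left out there was 1 rise without WT HFD 1. Of 18 triglyceride assembly genes 3 rose and 3 fell: Dgat2 by 0.59 ± 0.07, Mogat1 by 1.58 ± 0.20 and the phosphatidate phosphatase Lpin1 by 2.43 ± 0.46 fell, while Dgat1 rose by 0.41 ± 0.11, Mttp by 0.44 ± 0.09 and Agpat3 by 0.25 ± 0.07. Leaving out single arrays gave 1 rise without KO HFD 2 or 3 or any 1 WT HFD array. Of 19 cholesterol synthesis genes 2 rose, Hsd17b7 by 1.27 ± 0.09 (adjusted p = 8.86e-06) and Dhcr7 by 0.45 ± 0.11 (adjusted p = 0.0211), and 0 fell (3 at an unadjusted p under 0.05); 1 fell with trend and robust settings. Only exact matches to 1 form of the sterol response element, 10 bases long with 1 free, were searched in the 250 upstream bases. That form was found for 0 of the 15 members of that list with a promoter and for 0.226% of all genes with one. Sites that differ from that form at a fixed base were not counted, so the 0 does not show that these promoters lack the element. Acly lost its call without any 1 KO chow array or any 1 WT HFD array or KO HFD 2 or 3 (highest adjusted p 0.133). Fasn lost its call without KO HFD 2 or 3 (highest adjusted p 0.057). Acacb lost its call without WT HFD 1 or 2 or KO HFD 2 or 3 (highest adjusted p 0.114). Fads2 lost its call without WT HFD 1 (highest adjusted p 0.0507). Dgat1 lost its call without any 1 WT HFD array or KO HFD 2 or 3 (highest adjusted p 0.125). Agpat3 lost its call without any 1 HFD array or WT chow 2 or 3 or any 1 KO chow array (highest adjusted p 0.117). Dhcr7 lost its call without any 1 WT HFD array or KO HFD 1 or 3 (highest adjusted p 0.0756). In other settings the adjusted p of a call rose past 0.05 with only the HFD arrays in the fit for Acly (0.0951), Acacb (0.057), Fads2 (0.0602), Dgat1 (0.0913), Mttp (0.0503) and Agpat3 (0.125), with arrays centred on all probe sets for Acacb (0.0627), Dgat1 (0.0887) and Agpat3 (0.152), and by quantile normalization for Acly (0.0814).

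Droplet and uptake genes went both ways. Of 21 lipid droplet genes 5 rose and 4 fell (all genes: 3.89% and 6.62%). Cidea, which enlarges droplets, read 6.44, 8.06 and 8.66 in WT HFD and 4.84, 5.08 and 4.97 in KO HFD; the KO values match the chow means (4.90 and 4.96), and among WT HFD mice the first was low. Its fall was 2.76 ± 0.40 (adjusted p = 0.00113), and Plin4, Fitm1 and Ces1d fell by 1.82 ± 0.19, 1.30 ± 0.19 and 0.81 ± 0.10. Rises were smaller: Pnpla2 (ATGL, the first lipase of droplets) by 0.75 ± 0.14, Plin5 by 0.53 ± 0.14, Plin2 by 0.45 ± 0.07, Lipa by 0.38 ± 0.09 and Lipe by 0.29 ± 0.09. The rises numbered 2 without KO HFD 2 or WT HFD 2 and 3 without KO HFD 3 or WT HFD 3. Cidec read 9.88, 10.70 and 10.67 in WT HFD and 10.94, 11.80 and 12.00 in KO HFD; the groups did not overlap but the difference, 1.16 ± 0.40 (adjusted p = 0.092), did not pass (adjusted p = 0.0205 without WT chow 1). Of 16 uptake and binding genes 2 rose and 3 fell. Cd36, the fatty acid translocase, read 11.94, 12.10 and 12.06 in WT HFD and 9.94, 9.69 and 9.75 in KO HFD (a fall of 2.24 ± 0.21, adjusted p = 6.12e-05). The lipoprotein receptor Vldlr averaged 7.18 ± 0.12 in WT HFD and 5.41 ± 0.36 in KO HFD (SD, n = 3). Fabp5, a fatty acid carrier, rose by 2.71 ± 0.27 (adjusted p = 9.29e-05) from 6.42, 6.23 and 6.60 to 9.76, 8.87 and 8.76, above both chow means (7.30 and 6.49). Pparg, the receptor that drives fat storage, fell by 1.77 ± 0.49 (adjusted p = 0.037). Plin5 lost its call without WT HFD 2 or 3 or KO HFD 2 or 3 (highest adjusted p 0.108). Lipa lost its call without WT HFD 2 or KO HFD 2 (highest adjusted p 0.0568). Lipe lost its call without any 1 chow array or WT HFD 2 or 3 or any 1 KO HFD array (highest adjusted p 0.157). Pparg lost its call without any 1 HFD array (highest adjusted p 0.128). Further calls were lost (adjusted p in brackets) with only the HFD arrays in the fit for Plin5 (0.062), Lipa (0.0502) and Lipe (0.126), with arrays centred on all probe sets for Plin5 (0.0558) and Lipe (0.114), with trend and robust settings for Pparg (0.0883), with array weights for Lipe (0.0555) and Pparg (0.0571), and with every probe set tested for Lipe (0.0516). Averaged over all its probe sets, Fitm1 stood at -0.72 (adjusted p = 0.00516).

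Some genes of mitochondrial fatty acid oxidation rose, by small amounts. Of 26 genes of mitochondrial oxidation and ketogenesis 9 rose and 0 fell (2 at an unadjusted p under 0.05), with a median of 0.14. Of all genes 3.89% rose and 6.62% fell. Cpt1a, which admits fatty acids to mitochondria, read 12.65, 12.65 and 12.66 in WT HFD and 13.09, 13.23 and 13.18 in KO HFD, a rise of 0.51 ± 0.08 (adjusted p = 0.0016). The subunits of the trifunctional protein, Hadhb and Hadha, rose by 0.67 ± 0.14 and 0.31 ± 0.08, Etfdh by 0.34 ± 0.07, Acadvl by 0.34 ± 0.09 and Decr1 by 0.30 ± 0.09. Counted without single arrays, the rises were 5 without KO HFD 3 or WT HFD 1 or 2 and 4 without WT HFD 3. With trend and robust settings 12 rose and 1 fell, and with arrays centred on all probe sets 5 rose. Of 19 peroxisomal genes 4 rose and 1 fell. Ehhadh, the bifunctional enzyme, rose by 1.11 ± 0.09 (adjusted p = 2.92e-05) and Crat by 0.46 ± 0.07 (adjusted p = 0.0018), and the member that fell was Abcd2. Such rises came to 2 without KO HFD 1 or WT HFD 2 or 3. Of 8 fatty acid hydroxylases 4 rose, Cyp4a12b from 8.61, 8.95 and 8.57 to 11.63, 11.79 and 12.04, Cyp4a31 by 1.81 ± 0.13, Cyp4a12a by 1.07 ± 0.20 and Cyp4a14 by 0.26 ± 0.08. Cyp4a12a and Cyp4a12b are also counted in the male-biased list. Ppara, the nuclear receptor of this programme, stood at -0.14 ± 0.09 (adjusted p = 0.386), whereas its coactivator Ppargc1a rose from 8.60, 8.59 and 8.47 to 9.72, 9.70 and 9.81 (1.19 ± 0.18, adjusted p = 0.0015). Of 43 oxidative phosphorylation subunits 0 rose (3 at an unadjusted p under 0.05) and 1 fell, Sdha by 0.33 ± 0.08 (adjusted p = 0.0259) (median -0.03). Hadha lost its call without WT HFD 1 or 3 or KO HFD 2 or 3 (highest adjusted p 0.11). Acadvl lost its call without any 1 WT HFD array or KO HFD 2 or 3 (highest adjusted p 0.113). Decr1 lost its call without WT chow 1 or any 1 KO chow array or any 1 WT HFD array or KO HFD 2 or 3 (highest adjusted p 0.156). Cyp4a14 lost its call without any 1 of the 12 arrays (highest adjusted p 0.141). Sdha lost its call without any 1 WT HFD array or KO HFD 1 or 3 (highest adjusted p 0.0775). The threshold was also missed (adjusted p in brackets) with only the HFD arrays in the fit for Hadha (0.0978), Acadvl (0.0908), Decr1 (0.117), Cyp4a14 (0.136) and Sdha (0.0836), with arrays centred on all probe sets for Hadha (0.0971), Acadvl (0.0966), Decr1 (0.131) and Cyp4a14 (0.148), with array weights for Cyp4a14 (0.0587), by quantile normalization for Cyp4a14 (0.111), and with every probe set tested for Cyp4a14 (0.0529).

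Genes of glucose metabolism and insulin action moved in both directions. Of 25 measured 5 rose and 6 fell (all genes: 3.89% and 6.62%). Irs2, an insulin receptor substrate that rises in fasting, read 7.14, 7.07 and 7.44 in WT HFD and 9.69, 8.86 and 9.07 in KO HFD, a rise of 1.99 ± 0.30 (adjusted p = 0.00148). The glycolytic genes Pfkfb3 and Pklr fell by 1.50 ± 0.13 and 1.09 ± 0.14, the fructokinase Khk by 1.14 ± 0.12, the glucose transporter Slc2a2 by 0.65 ± 0.08 and the glycogen phosphorylase Pygl by 0.80 ± 0.11. G6pc, glucose 6-phosphatase, rose by 0.37 ± 0.10 (adjusted p = 0.0365), and Pck1 stood at 0.25 ± 0.07 (adjusted p = 0.0532), passing with trend and robust settings (adjusted p = 0.00247), among genes above the median signal (0.0136) and with arrays centred on the median (0.0466). There were 3 rises without KO HFD 2 or KO chow 2 or WT HFD 2 or 3 and 2 rises without WT HFD 1. Of 26 genes in a list of hepatokines, hormones that the liver secretes, 9 rose and 3 fell (the list also counts the receptors Lepr, which rose, and Ghr, which fell), with a median of 0.15. Fgf21 read 6.61, 6.93 and 6.81 in WT HFD and 8.36, 8.22 and 9.62 in KO HFD, and KO HFD 3 was the highest of all 12 arrays. Inhbe, an activin chain of hepatocytes, rose by 0.96 ± 0.14 (adjusted p = 0.00135), Fgl1 by 0.76 ± 0.15 (adjusted p = 0.00724) and Enho (adropin) by 0.54 ± 0.11 (adjusted p = 0.00706). Lepr, the leptin receptor, whose soluble form the liver releases, read 6.36, 6.42 and 6.26 in WT HFD and 8.45, 9.97 and 8.50 in KO HFD (a rise of 2.63 ± 0.66, adjusted p = 0.0253), with a wide spread on chow. Serpina6, the corticosteroid carrier, fell by 1.55 ± 0.20 (adjusted p = 0.000591) and Lect2 by 0.67 ± 0.16 (adjusted p = 0.0176). G6pc lost its call without KO chow 2 or any 1 WT HFD array or KO HFD 1 or 2 (highest adjusted p 0.112). Lepr lost its call without any 1 WT HFD array or KO HFD 2 (highest adjusted p 0.102). Lect2 lost its call without WT HFD 3 or KO HFD 2 or 3 (highest adjusted p 0.0739). Other settings ended calls, with the adjusted p in brackets: with only the HFD arrays in the fit for G6pc (0.0794) and Lect2 (0.0515), with arrays centred on all probe sets for G6pc (0.0681), and with trend and robust settings for Lepr (0.0702).

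Several genes of nitrogen and amino acid metabolism rose. Of 18 urea cycle and ammonia genes 6 rose and 3 fell (all genes: 3.89% and 6.62%). Got1, aspartate aminotransferase, rose by 1.07 ± 0.16 (adjusted p = 0.00121), Asl by 0.62 ± 0.10, Slc25a13 by 0.37 ± 0.08, Cps1 by 0.36 ± 0.07 and Arg1 by 0.36 ± 0.10, and the ammonium transporter gene Rhbg fell by 1.20 ± 0.17 (adjusted p = 0.0011). With 1 array left out there were 3 rises without KO HFD 3 or WT HFD 2 or 3. Leaving out single arrays gave 1 fall without KO HFD 2 or 3 or any 1 WT HFD array. Of 16 sulfur amino acid genes 4 rose and 2 fell. Csad, a taurine-producing enzyme, rose from 9.50, 8.77 and 9.31 to 10.56, 10.35 and 10.46 and Sqor, which oxidises sulfide, fell by 0.74 ± 0.09 (adjusted p = 0.000349). The rises numbered 2 without WT HFD 2 or 3. Among 21 immediate early genes 3 rose, Egr1 from 6.39, 6.65 and 6.49 to 7.98, 7.97 and 7.87 (a rise of 1.43 ± 0.24, adjusted p = 0.00273), Sik1 by 1.72 ± 0.43 (adjusted p = 0.023) and Jund by 0.50 ± 0.12 (adjusted p = 0.0171). Counted without single arrays, the rises were 1 without WT HFD 1 or 3. The chow means of Egr1, 8.03 and 7.70, lay beside the KO HFD values. Slc25a13 lost its call without WT HFD 2 or 3 or KO HFD 3 (highest adjusted p 0.057). Arg1 lost its call without any 1 HFD array or any 1 KO chow array (highest adjusted p 0.121). Sik1 lost its call without any 1 WT HFD array or KO HFD 1 (highest adjusted p 0.086). Jund lost its call without WT HFD 1 or 3 or KO HFD 2 (highest adjusted p 0.0706). Calls also ended (adjusted p in brackets) with only the HFD arrays in the fit for Slc25a13 (0.0588), with arrays centred on all probe sets for Arg1 (0.103), and with trend and robust settings for Sik1 (0.0605).

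Bile acid and vitamin A genes held single large changes. Of 19 bile acid synthesis genes 4 rose and 2 fell (all genes: 3.89% and 6.62%). Cyp8b1, the sterol hydroxylase that makes cholic acid, rose by 0.96 ± 0.11 (adjusted p = 0.000193), and Nr0b2 (SHP), a repressor of the pathway, fell by 0.95 ± 0.27 (adjusted p = 0.0471). Cyp7a1, the rate-limiting enzyme, read 11.44, 10.89 and 11.70 in WT HFD and 12.21, 11.89 and 12.30 in KO HFD and stood at 0.79 ± 0.24 (adjusted p = 0.0583); it passed without WT chow 1, WT chow 2 or WT HFD 3 (adjusted p = 0.0466, 0.031 and 0.0454) and among genes above the median signal (0.0297). Such rises came to 2 without KO HFD 3 or WT HFD 1 or 2. Of 20 transporters of bile acids and organic anions 2 rose and 4 fell. Abcb4, the phospholipid exporter, rose by 0.68 ± 0.10 (adjusted p = 0.0012) and Abcb11, the bile salt exporter, fell by 0.48 ± 0.12 (adjusted p = 0.025). There were 2 falls without KO HFD 2 or 3 or WT HFD 1. Of 23 vitamin A genes 1 rose and 6 fell. Cyp26a1, which degrades retinoic acid and follows its level, read 6.85, 6.90 and 6.66 in WT HFD and 5.31, 5.29 and 5.40 in KO HFD, under the chow means (6.27 and 6.24), a fall of 1.47 ± 0.12 (adjusted p = 2.84e-05). Rdh10 fell by 0.93 ± 0.08 and Lrat, a marker of stellate cells, by 0.93 ± 0.10. Nr0b2 lost its call without any 1 HFD array or WT chow 3 or any 1 KO chow array (highest adjusted p 0.154). Abcb11 lost its call without WT HFD 1 or KO HFD 2 or 3 (highest adjusted p 0.0948). In other settings the adjusted p of a call rose past 0.05 with only the HFD arrays in the fit for Abcb11 (0.0827), and with trend and robust settings for Nr0b2 (0.082).

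**Figure D5:**
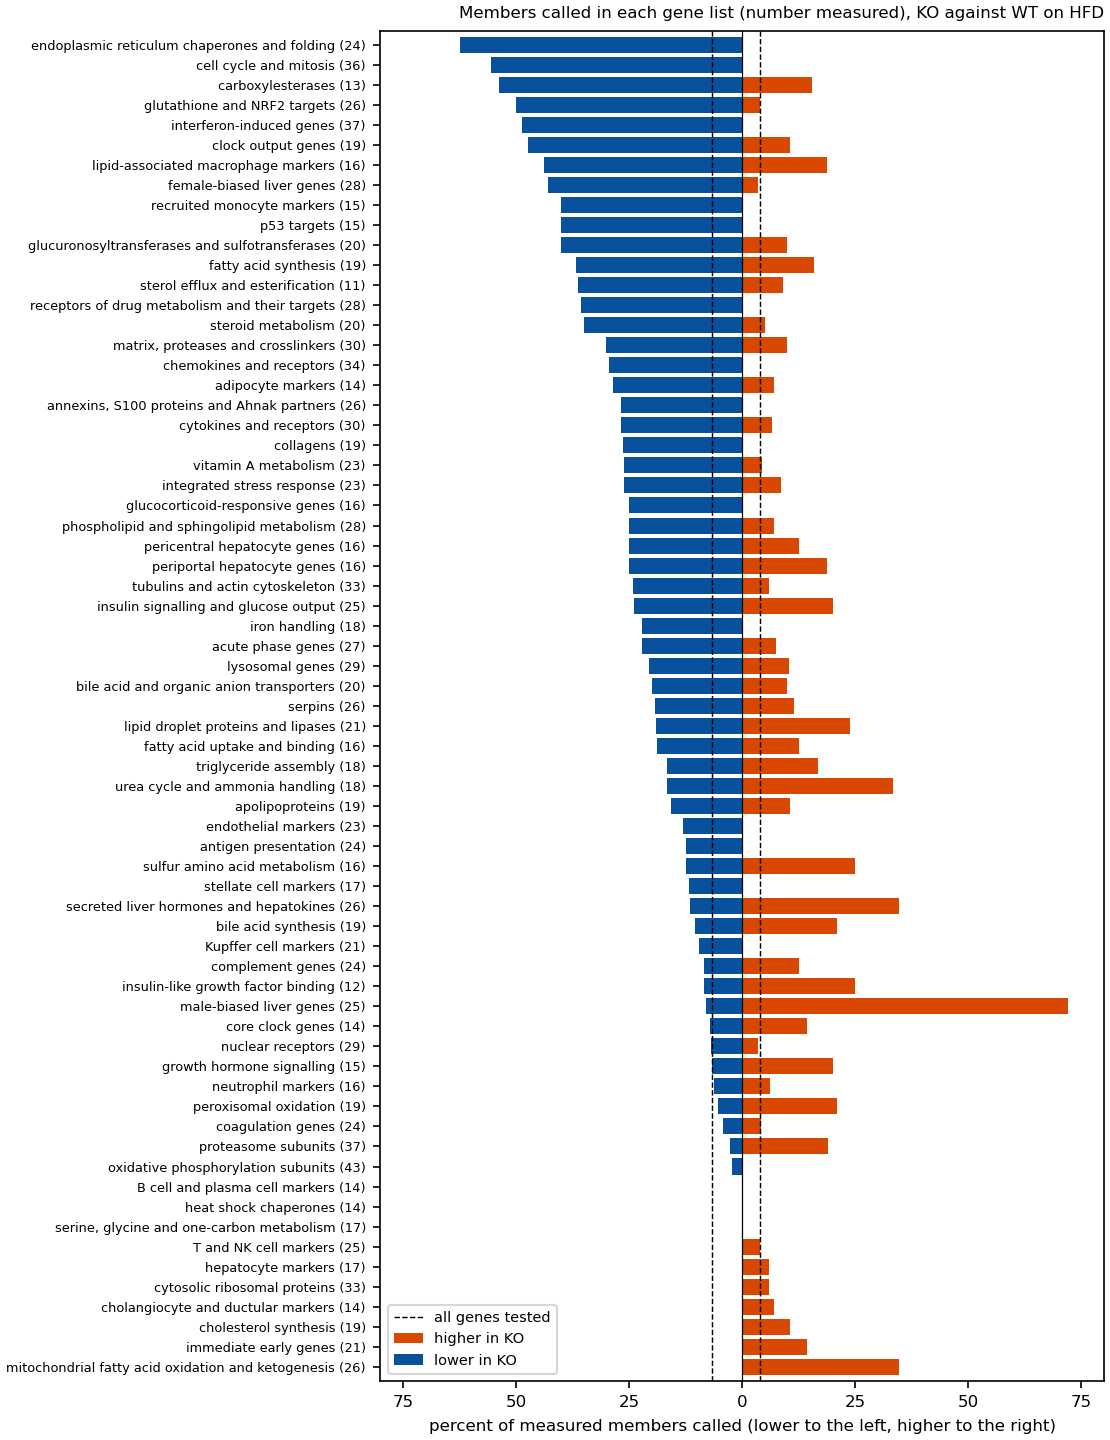
Bars show, for each gene list with 10 or more measured members (number in brackets), the percent of members called lower (blue, to the left) and higher (orange, to the right) in KO on HFD; dashed lines mark all genes tested, 6.62% and 3.89%. ER chaperones (62.5%) and cell cycle genes (55.6%) reach farthest to the left and male-biased genes (72%) farthest to the right.

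Part of the inflammatory and macrophage genes fell in KO. In whole liver, fewer cells of a type and less RNA per cell cannot be told apart. Of 34 chemokines and receptors 0 rose (0 at an unadjusted p under 0.05) and 10 fell (all genes: 3.89% and 6.62%). Cxcl10 read 8.39, 8.20 and 8.31 in WT HFD and 6.88, 6.75 and 5.86 in KO HFD (a fall of 1.80 ± 0.21, adjusted p = 0.000314), Ccl3 fell by 1.51 ± 0.20, Cxcl9 by 1.65 ± 0.30 and Ccl2, a monocyte attractant, by 1.28 ± 0.21. Of 30 cytokines and receptors 2 rose and 8 fell. With 1 array left out there were 5 falls without KO HFD 2. Il1r1, the receptor of interleukin 1, read 10.67, 10.66 and 10.31 and 8.65, 8.23 and 9.44 (a fall of 1.78 ± 0.25, adjusted p = 0.000875), and Il6ra fell by 1.10 ± 0.24, Il18 by 0.94 ± 0.20 and Tnf by 0.36 ± 0.10. The cytokine Il1b went the opposite way, from 5.94, 6.07 and 6.05 in WT HFD to 7.83, 8.54 and 7.38 in KO HFD (a rise of 1.90 ± 0.33, adjusted p = 0.00314), with the chow means, 8.40 and 8.12, beside the KO mice. Of 15 recruited monocyte markers 0 rose (0 at an unadjusted p under 0.05) and 6 fell, among them Ms4a7 (1.05 ± 0.16 lower), Ly6c2 (0.92 ± 0.20 lower) and Ccr2 (0.70 ± 0.15 lower). Of 16 lipid-associated macrophage markers 3 rose and 7 fell. Lgals1, a galectin, read 11.68, 11.78 and 11.88 in WT HFD and 8.36, 8.76 and 8.07 in KO HFD, a fall of 3.38 ± 0.17 (adjusted p = 6.03e-07), Mmp12 fell by 1.73 ± 0.13 and Gpnmb by 1.41 ± 0.21, whereas 3 members, Fabp5, Plin2 and Ctsl, rose. Which cells gave the signal of the members that fell or rose was not tested. Of 21 Kupffer cell markers 0 rose (0 at an unadjusted p under 0.05) and 2 fell (9.52%, near the 6.62% of all genes). Mpeg1 fell by 0.96 ± 0.13 and Slc40a1 by 0.64 ± 0.11, and among the defining members Clec4f stood at 0.11 ± 0.13 (adjusted p = 0.666), Vsig4 at -0.01 ± 0.17 (adjusted p = 0.976) and Timd4 at -0.32 ± 0.16 (adjusted p = 0.271). Tnf lost its call without any 1 chow array or WT HFD 1 or 2 or KO HFD 1 or 3 (highest adjusted p 0.169). Further calls were lost (adjusted p in brackets) with only the HFD arrays in the fit for Tnf (0.138) and Ccr2 (0.0518).

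Among secreted plasma proteins, single genes changed by large amounts. Of 27 acute phase genes 2 rose and 6 fell (all genes: 3.89% and 6.62%). Orm3 read 9.36, 9.22 and 9.93 in WT HFD and 6.36, 5.74 and 5.97 in KO HFD (a fall of 3.48 ± 0.37, adjusted p = 0.000163) and Orm2 fell by 1.94 ± 0.37 (adjusted p = 0.00552). Orm1 of the same family stood at 0.10 ± 0.12 (adjusted p = 0.666). Steap4, a metalloreductase, fell by 2.00 ± 0.19 (adjusted p = 6.83e-05), and Saa3 rose by 1.55 ± 0.31 (adjusted p = 0.0071) where Saa4 fell by 1.17 ± 0.15 (adjusted p = 0.000621). Of 24 complement genes 3 rose and 2 fell: the rises were those of C6, C8a and C8b, which stand in the male-biased list, and the mannose-binding lectin Mbl2 fell by 1.20 ± 0.13 (adjusted p = 0.000156). Of 24 coagulation genes 1 rose (4.17%) and 1 fell (4.17%), near the shares of all genes, Pros1 by 0.47 ± 0.13 and Kng2 by 0.29 ± 0.08. Of 26 serpins 3 rose and 5 fell, with Serpina7, a thyroxine carrier, falling by 3.42 ± 0.62 (adjusted p = 0.00401) and Serpinb1a by 1.79 ± 0.21 (adjusted p = 0.000283). Of 18 iron genes 4 fell, led by Hamp2, and the hepcidin gene Hamp stood at -0.17 ± 0.09 (adjusted p = 0.313). Pros1 lost its call without any 1 HFD array (highest adjusted p 0.106). Kng2 lost its call without WT chow 2 or 3 or any 1 KO chow array or any 1 WT HFD array or KO HFD 2 or 3 (highest adjusted p 0.162). The threshold was also missed (adjusted p in brackets) with only the HFD arrays in the fit for Kng2 (0.122), with arrays centred on all probe sets for Pros1 (0.0709), and with arrays centred on the median of genes for Kng2 (0.0598).

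Some matrix and cytoskeletal genes fell, beside 3.89% of all genes that rose and 6.62% that fell. Of 19 collagens 5 fell and 0 rose (0 at an unadjusted p under 0.05): Col3a1 by 1.24 ± 0.14, Col1a1 by 1.10 ± 0.13, Col14a1 by 0.75 ± 0.10, Col1a2 by 0.71 ± 0.14 and Col6a3 by 0.52 ± 0.15. Of 30 genes of matrix turnover 3 rose and 9 fell, Timp1 by 1.29 ± 0.17 and Postn by 1.00 ± 0.22 among the falls. Leaving out single arrays gave 1 rise without KO HFD 2 or 3. Of 17 stellate cell markers 2 fell (11.8%), Lrat and Vim, while Des stood at -0.08 ± 0.15 (adjusted p = 0.811) and Acta2 at -0.21 ± 0.35 (adjusted p = 0.778). Of 26 annexins, S100 proteins and Ahnak partners 0 rose (1 at an unadjusted p under 0.05) and 7 fell. The falls numbered 4 without KO HFD 1 or 2 or WT HFD 2 or 3. Anxa2, which binds Ahnak at the membrane, read 8.68, 8.73 and 9.01 in WT HFD and 7.10, 7.58 and 7.80 in KO HFD (a fall of 1.31 ± 0.17, adjusted p = 0.000591), while its partner S100a10 stood at 0.06 ± 0.10 (adjusted p = 0.807). Of 33 tubulin and actin genes 2 rose and 8 fell. Tubb2a rose from 8.85, 8.87 and 8.99 to 9.49, 9.80 and 10.59 and Krt23 fell by 1.25 ± 0.34 (adjusted p = 0.0347). Counted without single arrays, the falls were 4 without KO HFD 1 and 5 without WT HFD 2. Col6a3 lost its call without WT chow 1 or 2 or any 1 KO chow array or any 1 WT HFD array or KO HFD 1 or 3 (highest adjusted p 0.166). Vim lost its call without WT HFD 1 or 3 or KO HFD 1 or 3 (highest adjusted p 0.0926). Krt23 lost its call without any 1 WT HFD array or KO HFD 1 or 3 (highest adjusted p 0.119). Other settings ended calls, with the adjusted p in brackets: with only the HFD arrays in the fit for Col6a3 (0.0998), with trend and robust settings for Krt23 (0.0575), with array weights for Col6a3 (0.0796) and Krt23 (0.0522), by quantile normalization for Col6a3 (0.0588), and with every probe set tested for Col6a3 (0.0508).

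Part of the genes of cell division fell in KO. Of 36 measured 0 rose (0 at an unadjusted p under 0.05) and 20 fell (all genes: 3.89% and 6.62%), with a median of -0.47 and 34 differences below 0. Ccnb2, a mitotic cyclin, read 8.23, 8.09 and 8.07 in WT HFD and 6.94, 6.71 and 6.66 in KO HFD, a fall of 1.36 ± 0.15 (adjusted p = 0.000225). Cdk1, its kinase, fell by 0.94 ± 0.15 (adjusted p = 0.00207), Mki67, a marker of proliferating cells, by 0.84 ± 0.11 (adjusted p = 0.000469) and the G1 cyclin Ccnd1 by 0.87 ± 0.20 (adjusted p = 0.0149). The count depended on single mice. Such falls came to 13 without KO HFD 1, 11 without KO HFD 2 or WT HFD 3 and 12 without WT HFD 1. In the fit of genes above the median signal 9 fell, but members under that signal were not tested there, so this count does not compare with 20. Of 15 p53 targets 6 fell and 0 rose (0 at an unadjusted p under 0.05), led by Ccng1 (1.17 ± 0.09 lower) and Eda2r (1.10 ± 0.11 lower), but Cdkn1a (p21) read 11.82, 11.73 and 11.74 in WT HFD and 10.48, 9.17 and 11.86 in KO HFD, so that KO HFD 3 lay with the WT mice and the difference, -1.26 ± 0.51 (adjusted p = 0.147), did not pass. Many promoters of late cell cycle genes hold a cell cycle homology region (TTTGAA) and CCAAT boxes. In the 250 upstream bases TTTGAA occurred in 10 of 29 members (34.5%), 8 of 15 that fell and 2 of 14 that did not pass, against 18.3% of all genes with a promoter. CCAAT occurred in 23 of 29 (79.3%), 14 of 15 and 9 of 14, against 37.5%. Ccnd1 lost its call without WT HFD 3 or KO HFD 1 or 2 (highest adjusted p 0.058).

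Lists of other cell types are set here beside the 3.89% of all genes that rose and 6.62% that fell. Of 25 T and NK cell markers 1 rose, Cd4 by 0.80 ± 0.18 (adjusted p = 0.0129), and 0 fell (2 at an unadjusted p under 0.05), while Cd3e stood at -0.01 ± 0.14 (adjusted p = 0.969). Of 14 B cell and plasma cell markers 0 passed, with 1 above 0 and 0 below 0 at an unadjusted p under 0.05, and of 9 pancreatic acinar markers 0 passed, with 0 above 0 and 0 below 0 at an unadjusted p under 0.05, both in limma. Of 17 hepatocyte markers 1 rose, Cps1. Of 16 neutrophil markers 1 rose, Il1b, and 1 fell, Clec4e by 1.32 ± 0.17 (adjusted p = 0.000615), with S100a8 at -0.26 ± 0.12 (adjusted p = 0.218). Of 23 endothelial markers 3 fell (13%), Lyve1 from 10.28, 10.83 and 10.70 to 9.21, 9.19 and 9.35, Cdh5 by 0.36 ± 0.08 and Esam by 0.38 ± 0.10. There was 1 fall without KO HFD 2 or 3 or any 1 WT HFD array. Of 14 cholangiocyte markers Krt18 rose by 0.39 ± 0.11 (adjusted p = 0.0454) and 0 fell (1 at an unadjusted p under 0.05). Of 14 adipocyte markers 1 rose and 4 fell (28.6% lower), with Adipoq, which defines adipose tissue, at 4.63, 4.94 and 4.94 in WT HFD and 4.92, 4.78 and 4.67 in KO HFD, near the Xist level. With 1 array left out there were 2 falls without KO HFD 1 or 3 or any 1 WT HFD array. Cd4 lost its call without WT HFD 3 (highest adjusted p 0.0511). Lyve1 lost its call without any 1 HFD array (highest adjusted p 0.109). Esam lost its call without any 1 WT HFD array or KO HFD 2 or 3 (highest adjusted p 0.109). Krt18 lost its call without any 1 HFD array or WT chow 3 or any 1 KO chow array (highest adjusted p 0.164). Calls also ended (adjusted p in brackets) with only the HFD arrays in the fit for Esam (0.0573) and Krt18 (0.0726), with arrays centred on all probe sets for Krt18 (0.106), with trend and robust settings for Lyve1 (0.0762), and with probe sets averaged for Krt18 (0.069).

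Gene levels spread more among the 3 KO mice than among the 3 WT mice, a description with no test. Over all genes the median SD within KO HFD was 0.14 and within WT HFD 0.12, and over the genes called 0.13 and 0.09; the KO SD was the larger for 57.2% of all genes and 65.3% of those called. Among genes called, KO HFD 1 was the KO mouse nearest to the WT mean for 903, KO HFD 3 for 828 and KO HFD 2 for 600. Particular mice stood out in particular genes. Serpina7 read 11.51, 11.51 and 11.37 in WT HFD and 9.72, 7.02 and 7.40 in KO HFD, and the lysosomal proton pump gene Atp6v0d2 8.04, 7.64 and 7.86 and 7.16, 4.94 and 5.10; in both KO HFD 1 lay nearest to WT. Lpin1 read 12.23, 12.30 and 12.28 and 9.52, 8.83 and 11.18, Rgs16, a regulator of G protein signalling, 11.16, 11.50 and 11.73 and 6.73, 7.73 and 9.14, and Zbtb16 (PLZF), a glucocorticoid-responsive factor, 10.44, 10.35 and 10.14 and 7.95, 7.35 and 9.96; in these KO HFD 3 lay nearest. The WT mice held within 0.6 of each other in all 5. Falls were 3.42 ± 0.62 for Serpina7, 2.11 ± 0.50 for Atp6v0d2, 2.43 ± 0.46 for Lpin1, 3.60 ± 0.65 for Rgs16 and 1.89 ± 0.49 for Zbtb16. These genes were named because their spread was the largest among genes called. Atp6v0d2 lost its call without WT HFD 1 or 3 or KO HFD 2 or 3 (highest adjusted p 0.0763). Zbtb16 lost its call without any 1 WT HFD array or KO HFD 1 or 2 (highest adjusted p 0.104). In other settings the adjusted p of a call rose past 0.05 with only the HFD arrays in the fit for Zbtb16 (0.0823), and with trend and robust settings for Zbtb16 (0.0742).

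Large changes of other genes, most of them in no list, are given here. Themis, a T cell signalling gene, read 7.75, 7.74 and 7.94 in WT HFD and 5.80, 5.18 and 5.36 in KO HFD, at the chow means (5.32 and 5.34). Sprr1a, a cornified envelope gene, fell by 2.33 ± 0.12 (adjusted p = 7.49e-07), Hnmt, which inactivates histamine, by 2.16 ± 0.11 (adjusted p = 6.19e-07), the desmosomal gene Dsg1c by 2.15 ± 0.12 (adjusted p = 1.4e-06) and the lectin gene Clec2h by 3.02 ± 0.31 (adjusted p = 0.000118). Upward, Selenbp2, a selenium-binding protein of the male-biased list, rose by 2.37 ± 0.28 (adjusted p = 0.000317), Cgref1, a secreted growth regulator, from 6.26, 6.47 and 6.68 to 8.11, 9.62 and 9.01, the adhesion receptor gene Adgrf1 by 2.07 ± 0.51 (adjusted p = 0.0227), Cntnap1 by 1.98 ± 0.31 (adjusted p = 0.00162) and Tbc1d30 by 1.98 ± 0.32 (adjusted p = 0.00224). Nnt, a mitochondrial transhydrogenase that differs between C57BL/6 substrains, read 10.76, 10.75 and 10.75 in WT HFD and 10.19, 9.39 and 10.30 in KO HFD (-0.79 ± 0.30, adjusted p = 0.12). Adgrf1 lost its call without any 1 WT HFD array or KO HFD 1 or 2 (highest adjusted p 0.0849). Further calls were lost (adjusted p in brackets) with trend and robust settings for Adgrf1 (0.0573).

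Whether the difference on HFD differed from that on chow was tested with the interaction of genotype and diet. It passed for 783 genes (3.53%), of which 318 (1.43%) had a KO minus WT difference higher on HFD and 465 (2.1%) a lower one. Of these, 725 were also among the 2331 genes called on HFD, 280 rises and 445 falls going the same way as the interaction, so that 58 passed in the interaction alone. The difference of Moxd1 was 0.04 ± 0.29 on chow and 4.80 ± 0.29 on HFD, that of C6 -0.36 ± 0.09 and 2.00 ± 0.09, that of Cyp2a5 -0.19 ± 0.11 and -3.17 ± 0.11, and that of Lgals1 -0.49 ± 0.17 and -3.38 ± 0.17. Among male-biased genes 18 passed with a higher difference on HFD, where their median was 1.10 against -0.41 on chow; among female-biased genes 13 passed with a lower one (medians -0.25 and 0.31). Of the genes that rose on HFD 407 (47.2%) were also above 0 on chow, and of those that fell 856 (58.3%) were below 0 there. Across all genes, which are not independent replicates, the differences on HFD and on chow, which share no arrays, correlated with r = -0.03, with an SD of 0.33 on HFD and 0.17 on chow. Without WT chow 3, KO chow 2, KO chow 3, WT HFD 2, WT HFD 3 or KO HFD 2 the interaction counts were 172, 167, 168, 162, 191 and 191 for higher and 272, 265, 266, 281, 290 and 298 for lower.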

How the data were processed

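Liver RNA of 12 mice, 3 in each of 4 groups, was hybridised to 1-colour Affymetrix arrays after total RNA extraction and biotin labelling, per the labels' protocols. The authors deposited log2 signals of 41345 probe sets, and the submitters' processing notes name the R package oligo, with neither its version nor the background and scaling steps stated; array medians lay between 5.58 and 5.70. No scanner files were used, so the number of arrays limits the precision, and small differences may move with those unstated steps. GEO's platform annotation gave 1 gene symbol for 23521 probe sets, several for 1814 and none for 16010; 23328 of the first were updated through RefSeq gene numbers and 193 kept the annotation's name. The 17824 others were left out. Of the 1082 genes with more than 1 probe set, the one with the highest mean was kept.

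Differences came from lmFit and eBayes of the R (4.3.3) package limma, version 3.58.1, over all 12 arrays in 4 groups, which share 1 estimate of the spread. A gene was called at a Benjamini-Hochberg adjusted p under 0.05 over 22180 genes. Values after ± are the fit's standard errors for differences, with n = 3 mice in each group. The procedure was checked on simulated data.

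Members of the 71 gene lists (1312 genes) and the tests were chosen with earlier results of these data known, so that their counts are descriptions beside the share of all genes, and no list was tested. Named genes were, among called genes whose arrays did not overlap and leaving out gene models, the 20 largest rises and 20 largest falls, the 10 smallest p and the 5 largest SDs, with list members and 21 genes always named. Alternatives covered scaling, centring, variance settings, array weights, dim genes, probe sets, the arrays in the fit and the replicate number. Promoter motifs were searched in RefSeq sequences of GRCm38.p6. Python 3.11.15 with pandas 2.3.3 handled tables.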

Additional observations from a re-analysis of the deposited data

Results flagged for a closer look

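Results were set apart here because the KO minus WT difference on HFD differed from that on chow in limma's interaction test at an adjusted p under 0.05. That was so for 318 genes with a higher difference on HFD and 465 with a lower one. Values in brackets are the difference on HFD minus the difference on chow, in log2 units, for the genes named above and below, and a gene in several lists is given under 1 of them. Genes not named in this text are left out, so the entries are not totals of a list or class. No explanation was weighed for them. Groups of 3 mice are too small for a search for single outlying arrays.

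Members of the sex-biased and growth hormone signalling lists with a higher difference on HFD were Moxd1 (4.76), Hsd3b5 (4.23), Ugt2b38 (3.98), Cyp4a12b (3.56), Cyp7b1 (3.45), Selenbp2 (2.95) and C6 (2.36). Next in size came Mup21 (2.03), Socs2 (1.82), C8b (1.55), Cyp4a12a (1.55), Egfr (1.47), Serpina1e (1.42) and Gstp1 (0.84). Smaller values in that direction belonged to C8a (0.76). Members of the sex-biased and growth hormone signalling lists with a lower difference on HFD were Cyp2b9 (-11.16), Hamp2 (-5.26), Cyp2b13 (-5.18), Slc22a27 (-4.15), Atp6v0d2 (-4.00), Cyp2a4 (-3.04) and Abcd2 (-2.09). Further down came Fmo2 (-1.55), Hao2 (-1.53) and Cux2 (-0.67). Members of the insulin-like growth factor binding list with a higher difference on HFD were Igfbp1 (2.20) and Igfbp2 (1.92). Members of the clock, glucocorticoid and immediate early lists with a higher difference on HFD were Avpr1a (1.90) and Egr1 (1.75). Members of the clock, glucocorticoid and immediate early lists with a lower difference on HFD were Ciart (-3.69), Usp2 (-2.84), Upp2 (-1.77), Tsc22d3 (-1.57), Serpina6 (-1.40) and Nampt (-0.80). The named member of the glucose and insulin list with a higher difference on HFD was Irs2 (2.97). Members of the glucose and insulin list with a lower difference on HFD were Pfkfb3 (-1.71), Khk (-1.34), Pklr (-0.93), Pygl (-0.85) and Slc2a2 (-0.81). Members of the lists of fat and sterol synthesis, storage and transport with a higher difference on HFD were Fabp5 (3.52), Hsd17b7 (1.15), Plin2 (0.53), Lipa (0.51) and Elovl5 (0.49). Members of the lists of fat and sterol synthesis, storage and transport with a lower difference on HFD were Thrsp (-3.94), Lpin1 (-3.68), Cidea (-2.82), Cd36 (-2.34), Plin4 (-2.06), Vldlr (-1.92) and Mogat1 (-1.17). They were followed by Abcg5 (-0.74), Dgat2 (-0.64) and Ces1d (-0.63). Members of the fatty acid oxidation, ketogenesis and hydroxylase lists with a higher difference on HFD were Fgf21 (1.96), Cyp4a31 (1.82), Ehhadh (1.35), Hadhb (0.83), Crat (0.59) and Hadha (0.48). Members of the bile acid, steroid, drug metabolism and carboxylesterase lists with a higher difference on HFD were Ugt2b37 (2.95), Ces4a (1.37), Cyp8b1 (0.97), Ces3b (0.82) and Abcb4 (0.68). Members of the bile acid, steroid, drug metabolism and carboxylesterase lists with a lower difference on HFD were Cyp2b10 (-3.67), Cyp2a5 (-2.98), Ces1g (-2.74), Akr1d1 (-2.31), Sult1c2 (-1.84), Ces2g (-1.45) and Akr1c20 (-1.33). Next in size came Ces2e (-1.28) and Ces1e (-0.77). Among members of the glutathione, sulfur amino acid and ammonia lists not given under another list, the named one with a higher difference on HFD was Csad (2.16).

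Members of the glutathione, sulfur amino acid and ammonia lists with a lower difference on HFD were Gstt3 (-2.56), Gstm3 (-2.46), Rhbg (-1.40), Gsta3 (-1.36), Gsta4 (-1.13), Gstt1 (-0.90) and Sqor (-0.83). The named member of the vitamin A and pericentral lists with a higher difference on HFD was Tbx3 (1.23). Members of the vitamin A and pericentral lists with a lower difference on HFD were Cyp26a1 (-1.44) and Rdh10 (-0.90). Among members of the hepatokine, acute phase, complement, serpin and apolipoprotein lists not given under another list, the named one with a higher difference on HFD was Inhbe (0.87). Members of the hepatokine, acute phase, complement, serpin and apolipoprotein lists with a lower difference on HFD were Orm3 (-4.72), Orm2 (-2.92), Serpinb1a (-2.42), Steap4 (-2.19), Il1r1 (-2.18), Il6ra (-1.53) and Mbl2 (-1.38). Smaller values in that direction belonged to Saa4 (-0.92). The named member of the phospholipid and sphingolipid list with a higher difference on HFD was Pcyt2 (0.63). The named member of the phospholipid and sphingolipid list with a lower difference on HFD was Acer2 (-1.12). Members of the stress, p53, cell cycle, proteasome and lysosome lists with a higher difference on HFD were Atf5 (1.18), Gaa (0.63), Psmb4 (0.57) and Psmc4 (0.48). Members of the stress, p53, cell cycle, proteasome and lysosome lists with a lower difference on HFD were Ddit4 (-2.26), Ddit3 (-1.49), Herpud1 (-1.41), Creld2 (-1.30), Ccnb2 (-1.25), Eda2r (-1.23) and Ccng1 (-1.19). Further down came Hspa5 (-1.03), Hyou1 (-0.99), Psmb10 (-0.96), Dnajb9 (-0.93), Hexa (-0.83) and Mki67 (-0.76). Members of the chemokine, interferon, collagen, matrix, annexin, cytoskeleton and cell type lists with a higher difference on HFD were Il1b (2.17) and Tubb2a (1.27). Members of the chemokine, interferon, collagen, matrix, annexin, cytoskeleton and cell type lists with a lower difference on HFD were Lgals1 (-2.90), Mmp12 (-1.70), Gpnmb (-1.62), Postn (-1.53), Col3a1 (-1.45), Col1a1 (-1.42) and Gbp3 (-1.35). They were followed by Timp1 (-1.34), Ccl3 (-1.24), Clec4e (-1.14), Mpeg1 (-1.04), Anxa2 (-1.04), Ms4a7 (-0.97) and Col1a2 (-0.90). Next in size came Col14a1 (-0.86), Lrat (-0.84) and Irf8 (-0.78). The named gene outside the lists with a higher difference on HFD was Tbc1d30 (2.30). Named genes outside the lists with a lower difference on HFD were Rgs16 (-4.55), Gbp10 (-2.72), Sprr1a (-2.56), Ppp1r3b (-2.51), Hnmt (-2.41), Themis (-2.37) and Dsg1c (-2.28). Smaller values in that direction belonged to Clec2h (-2.26) and Gbe1 (-1.60).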

How the results depend on the processing

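Fewer rises than the 862 reported were called with arrays centred on the median of all probe sets (545), and a change of at least 2-fold left 96 rises and 199 falls. With 1 array left out the rises numbered 523 to 870 and the falls 977 to 1456; 1169 genes (50.2% of those called) were called whichever array was left out. For the interaction, with 318 higher and 465 lower, trend and robust settings gave 491 and 710, genes above the median signal 584 and 810, a change of at least 2-fold 111 and 164, and leaving out 1 array 162 to 314 and 265 to 439. The cause of these shifts was not tested beyond what fewer arrays or genes bring by construction. Every other alternative kept the counts within 1.5 times of those reported. Of 254 genes named and called, 184 kept the call in all 22 alternatives that applied to single genes, and no named gene changed sign under a called value.

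Mice of different groups share the replicate numbers 1 to 3. With the replicate block 733 genes rose and 1340 fell on HFD, and 247 were higher and 365 lower in the interaction. This setting is left out of the lost calls above. It ended those of Ahnak (limma adjusted p 0.064), Acly (0.072), Agpat3 (0.0664), Apoa4 (0.0568), Arg1 (0.0613), Col6a3 (0.052) and Cyp4a14 (0.0724). Also lost were Decr1 (0.0686), Dgat1 (0.0574), Esam (0.0537), Hadha (0.0567), Irf7 (0.0617), Klf1 (0.0506) and Krt18 (0.0565). Past 0.05 too were Lipe (0.0713), Lyve1 (0.0614), Psmd6 (0.0613), Psmd11 (0.0624), Psmd12 (0.0595), Rpl10a (0.0629) and Zbtb16 (0.0502). Deviations of same-numbered mice from their group means correlated with r between -0.0639 and 0.0796, so the numbers were not taken to pair the mice.

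The log2 scale of the deposited signals flattens at weak signals, which limits the size of differences that start or end near or below the level of Xist. Transcripts of close paralogs, cell composition and hour of collection could not be separated from the differences with these files. Only 3 mice a group were measured.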

Other observations

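Further lists held scattered changes, set here against the 3.89% of all genes that rose and 6.62% that fell. Of 5 major urinary proteins, pheromone carriers of male liver, 2 rose: Mup21 from 6.47, 6.39 and 7.03 in WT HFD to 8.54, 7.99 and 8.29 in KO HFD (a rise of 1.64 ± 0.27, adjusted p = 0.00254) and Mup5 by 0.92 ± 0.23 (adjusted p = 0.026); members of this family share long stretches and their signals may mix. Of 16 pericentral genes 2 rose and 4 fell. Tbx3, a Wnt-dependent factor, rose by 1.33 ± 0.12 (adjusted p = 4e-05) and Axin2, a Wnt target, by 0.57 ± 0.12 (adjusted p = 0.0117). By contrast, Rgn fell by 0.92 ± 0.16 (adjusted p = 0.00328). Leaving out single arrays gave 2 falls without KO HFD 2 or WT HFD 3. Of 16 periportal genes 3 rose and 4 fell, with Aldh1b1 falling by 1.30 ± 0.27 (adjusted p = 0.00909) and Gda by 0.84 ± 0.13 (adjusted p = 0.00201). The rises numbered 1 without KO HFD 1 or 2 or any 1 WT HFD array. Of 29 nuclear receptors and cofactors 1 rose and 2 fell. Ppargc1a rose, and Pparg and Nr0b2 fell. Of 16 glucocorticoid-responsive genes 0 rose (0 at an unadjusted p under 0.05) and 4 fell, with Tsc22d3 (GILZ) falling by 1.17 ± 0.14 (adjusted p = 0.000358). Counted without single arrays, the falls were 7 without KO HFD 1. Mup5 lost its call without WT HFD 2 or 3 or KO HFD 2 or 3 (highest adjusted p 0.101). Axin2 lost its call without KO HFD 2 (highest adjusted p 0.0524). Pparg lost its call without any 1 HFD array (highest adjusted p 0.128). Nr0b2 lost its call without any 1 HFD array or WT chow 3 or any 1 KO chow array (highest adjusted p 0.154). The threshold was also missed (adjusted p in brackets) with trend and robust settings for Pparg (0.0883) and Nr0b2 (0.082), and with array weights for Pparg (0.0571). Averaged over all its probe sets, Axin2 stood at 0.33 (adjusted p = 0.0302).

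Of 11 genes of sterol efflux 1 rose and 4 fell. The canalicular partners Abcg5 and Abcg8 fell by 0.66 ± 0.12 (adjusted p = 0.00404) and 0.45 ± 0.12 (adjusted p = 0.0317), and Npc1 rose by 0.54 ± 0.12 (adjusted p = 0.014) where Npc2, its partner in lysosomal cholesterol export, fell by 0.43 ± 0.09 (adjusted p = 0.0114). Such falls came to 2 without KO HFD 2 or 3 or WT HFD 1 or 2 and 1 without WT HFD 3. Of 19 apolipoproteins 2 rose and 3 fell, with Apoa4 rising by 0.42 ± 0.11 (adjusted p = 0.0345) and Apom by 0.50 ± 0.10 (adjusted p = 0.00792). There was 1 fall without KO HFD 3 or WT HFD 1 or 3. Of 28 phospholipid and sphingolipid genes 2 rose and 7 fell; the ceramide synthase Cers6 fell by 0.62 ± 0.16 (adjusted p = 0.0296) and the ceramidase Acer2 by 0.85 ± 0.17 (adjusted p = 0.00687), and Pcyt2, of phosphatidylethanolamine synthesis, rose by 0.58 ± 0.08 (adjusted p = 0.000641). With 1 array left out there were 4 falls without KO HFD 1, 3 falls without KO HFD 2 or WT HFD 3, 2 falls without WT HFD 1 and 1 fall without WT HFD 2. Of 29 lysosomal genes 3 rose and 6 fell. Hexa fell by 0.88 ± 0.09 (adjusted p = 8.17e-05) and Gaa, which degrades glycogen, rose by 0.58 ± 0.09 (adjusted p = 0.00162). Leaving out single arrays gave 3 falls without KO HFD 2 and 2 falls without WT HFD 3. Of 4 erythroid markers 0 rose (1 at an unadjusted p under 0.05) and 1 fell, Klf1 by 0.63 ± 0.17 (adjusted p = 0.0308). Abcg8 lost its call without any 1 WT HFD array or KO HFD 2 or 3 (highest adjusted p 0.117). Npc1 lost its call without WT HFD 2 or 3 or KO HFD 2 (highest adjusted p 0.0512). Npc2 lost its call without WT HFD 3 (highest adjusted p 0.0512). Apoa4 lost its call without any 1 HFD array (highest adjusted p 0.101). Cers6 lost its call without WT HFD 1 or 2 or KO HFD 2 or 3 (highest adjusted p 0.113). Klf1 lost its call without any 1 HFD array (highest adjusted p 0.106). Other settings ended calls, with the adjusted p in brackets: with only the HFD arrays in the fit for Abcg8 (0.0688) and Cers6 (0.0623), with arrays centred on all probe sets for Apoa4 (0.0862), and by quantile normalization for Apoa4 (0.0568). Averaged over all its probe sets, Npc1 stood at 0.22 (adjusted p = 0.165).

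A few genes in no list were chosen after their values were seen. Ppp1r3c, a glycogen-targeting subunit of protein phosphatase 1, read 11.44, 11.73 and 11.46 in WT HFD and 9.72, 9.19 and 9.07 in KO HFD (a fall of 2.21 ± 0.34, adjusted p = 0.0015), Ppp1r3b, of the same family, fell by 1.98 ± 0.28 (adjusted p = 0.000859) and the branching enzyme Gbe1 by 1.40 ± 0.15 (adjusted p = 0.000175). Other genes that act on glycogen went both ways, with rises for Gys2 (0.70 ± 0.16) and Gaa (0.58 ± 0.09) and a fall for Pygl. The chow means of Ppp1r3c were 10.02 in WT and 9.21 in KO. Gys2 lost its call without WT HFD 1 or KO HFD 2 (highest adjusted p 0.0632).

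Some genes split cleanly on HFD without being called, also chosen after their values were seen. Ctse, an intracellular protease, read 7.46, 7.62 and 7.65 in WT HFD and 10.76, 10.97 and 11.30 in KO HFD, but on chow 6.75, 6.51 and 11.01 in WT and 11.34, 6.27 and 6.28 in KO. Its difference on HFD was 3.43 ± 1.29 (adjusted p = 0.121), and with only the 6 HFD arrays in the fit the adjusted p was 3.52e-05. Mug2, a protease inhibitor of plasma, stood at -2.61 ± 0.94 (adjusted p = 0.106), and at 0.0364 with only those arrays.

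Calls were also counted by class of transcript. Of 18964 protein-coding genes 779 rose and 1418 fell (11.6% called), of 1926 long noncoding RNAs 55 rose and 26 fell (4.21%), and of 478 miRNA genes 10 rose and 5 fell (3.14%). In a fit over all 41345 probe sets, 224 of the 16010 without a symbol were higher and 119 lower (2.14%), against 558 and 1045 of the 23521 with 1 symbol (6.82%). The difference between these classes was not tested, and unnamed probe sets enter no count above.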
